A study of Mus musculus with 4 samples.

Results

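Tendon cells marked by Tnmd, Kera, Chodl and Thbs4 made up 694 of 15670 kept barcodes in CITE-seq libraries of murine bone and marrow, 433 of 10063 in the young library and 261 of 5607 in the old library. A barcode was kept with at least 200 genes and at most 20% mitochondrial unique molecular identifiers (UMIs, which count captured molecules). It was counted as a tendon cell when at least 2 of the 4 genes had a UMI and the 4 genes together had at least 3 UMIs. Tendon cells were thereby 4.30% of kept barcodes in the young library (exact 95% interval 3.91 to 4.72%) and 4.65% in the old library (4.12 to 5.24%). With 1 library per age, no test of this share between ages was possible, and the intervals cover counting error only. The order of the libraries depended on the rule and on depth. With each barcode drawn down to 2000 UMIs and cells chosen again, the shares were 2.60% (young) and 2.27% (old). With at least 3 of the 4 genes required they were 0.964% and 0.874%.

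The libraries came from young and old untreated INK-ATTAC mice. The labels give no age in months for them, the study states ages of 6 months (young) and 24 months (old) for its mice in general, and for some of its single-cell work an old range that reaches somewhat higher, so the exact age of the old library is uncertain. INK-ATTAC animals carry an inducible caspase 8 transgene under a fragment of the p16 promoter, and both groups carried it without receiving the drug that activates it. Femora and tibiae were used, with marrow released by Liberase and bone by collagenase. After red cell lysis and magnetic depletion of blood lineages, cells were stained with an oligonucleotide-tagged antibody to CD24, and live CD45- cells were sorted and captured with 10x Genomics 3′ chemistry, which gave an RNA and an antibody readout for each barcode. The number of mice behind each library is not given in the sources used here. The sort removes most blood cells and takes whatever connective tissue the digestion freed, so a share here is one of the sorted suspension, not of bone.

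Tendon joins muscle to bone and consists largely of parallel collagen I fibrils laid down by resident fibroblasts, the tenocytes. The transcription factors Scleraxis (Scx) and Mohawk (Mkx) direct the lineage, tenomodulin (Tnmd) is a membrane glycoprotein typical of its mature cells, and small leucine-rich proteoglycans such as fibromodulin (Fmod) bind collagen and control fibril thickness. Where tendon and ligament insert into bone the tissue turns into fibrocartilage, and a sheath of looser connective tissue covers the outside.

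Tendon cells had a median of 7001 RNA UMIs per barcode in the young and 13420 in the old library, against 6629 and 10227 in other mesenchymal barcodes. Those were 7586 young and 3952 old barcodes without a UMI of the leukocyte gene Ptprc and with a UMI in at least 3 of 8 genes of connective tissue cells (Prrx1, Pdgfra, Pdgfrb, Col5a2, Col6a3, Twist1, Fbn1 and Fstl1). Of the tendon cells themselves, 417 of 433 and 258 of 261 met that mesenchymal rule, although it had not been asked of them. The libraries shared 19 kept barcode sequences, of which 1 was a tendon cell in either library. Scrublet predicted 19 young and 3 old tendon cells as doublets (4.39% and 1.15%, against 2.67% and 1.02% of all kept barcodes), and they stayed in, as the rule did not use that call. A Ptprc UMI was found in 3 young and 1 old tendon cells.

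The 4 genes that chose the cells contributed unequally. Their values are a description, since they set the membership. Thbs4, a thrombospondin of the pericellular matrix, had a UMI in 433 of 433 young and 260 of 261 old tendon cells and gave 80.7% and 77.3% of the 13995 and 11910 UMIs of the 4 genes. Tnmd had a UMI in 354 young (81.8%) and 223 old tendon cells (85.4%). Chodl, which encodes the C-type lectin chondrolectin, had one in 102 (23.6%) and 48 (18.4%), and Kera, the keratan sulfate proteoglycan keratocan, in 88 (20.3%) and 44 (16.9%). Nearly all tendon cells were thus Thbs4 cells, most with Tnmd and fewer with Kera or Chodl.

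Summed over tendon cells, Tnmd stood at 513 and 496 CPM (counts scaled to a fixed RNA total per set, young then old), Kera at 151 and 129, Chodl at 99.6 and 75.5 and Thbs4 at 3198 and 2378. In other mesenchymal barcodes Tnmd stood at 2.59 and 7.32, Kera at 0.737 and 1.56, Chodl at 0.720 and 0.95, and Thbs4 at 263 and 204. Thbs4 was therefore the widest of the 4 genes, with a UMI in 21.5% and 18.3% of other mesenchymal barcodes, and Tnmd was much narrower, at 1.17% and 2.68%. Such shares can be set beside those of blood barcodes, which were kept barcodes with a Ptprc UMI that were not tendon cells. The part of free RNA in those shares was not tested. In the 646 and 503 blood barcodes, with median depths of 7419.5 and 5557 UMIs, Tnmd had a UMI in 0.464% and 0.795%, Kera in 0 and 0.199%, Chodl in 0.310% and 0.199%, and Thbs4 in 5.11% and 4.77%. After thinning each barcode to 2000 UMIs (421 young and 261 old tendon cells), shares among tendon cells were 53.2% and 49.0% for Tnmd, 11.6% and 7.28% for Kera, 13.3% and 10.3% for Chodl and 89.8% and 80.1% for Thbs4.

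**Figure D1:**
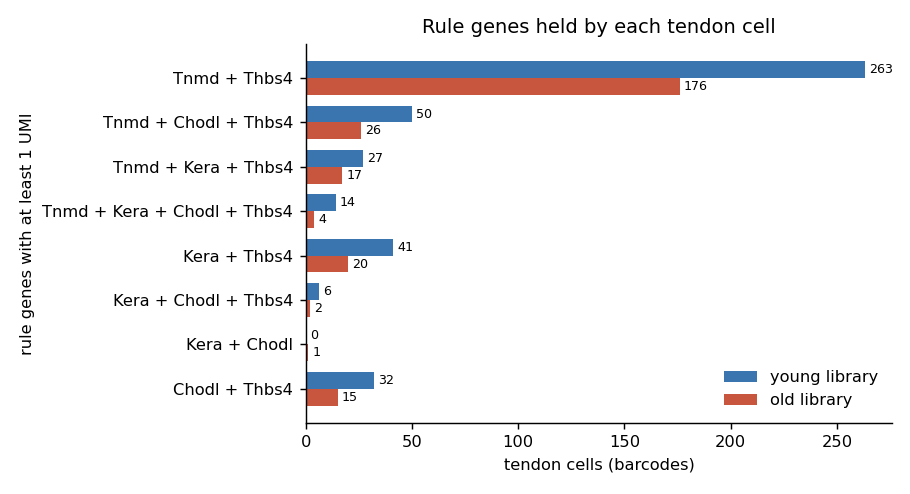
Tnmd, Kera, Chodl and Thbs4 in tendon cells, young and old library shown separately. These genes chose the tendon cells, so their presence there is a description. Thbs4 was at 263 and 204 CPM in other mesenchymal barcodes as well, where Tnmd was at 2.59 and 7.32.

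Most tendon cells carried exactly 2 of the 4 genes, 336 young and 212 old, while 83 and 45 carried 3 and 14 and 4 carried all 4. The commonest combination was Tnmd with Thbs4, in 263 young (60.7%) and 176 old tendon cells (67.4%). Tnmd, Chodl and Thbs4 occurred together in 50 and 26, Kera and Thbs4 without the others in 41 and 20, and Chodl and Thbs4 without the others in 32 and 15. The 4 genes summed to a median of 24 UMIs per young and 28 per old tendon cell, with quartiles of 10 to 45 and 12 to 51 and a range from 3 to 204 and 3 to 551.

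Close to the threshold, 23 young and 5 old tendon cells had exactly 3 UMIs, and Mfap4, a microfibril-associated glycoprotein that the rule did not use, had a UMI in 30.4% and 20.0% of them. Just outside it, 21 and 9 barcodes had 2 of the genes with 2 UMIs in all, with Mfap4 in 9.52% and 11.1%. Another 1057 and 515 barcodes had at least 3 UMIs but all in 1 gene, with Mfap4 in 12.9% and 14.2%. Barcodes with at least 3 UMIs of Tnmd alone numbered 18 and 38, with Mfap4 in 33.3% and 28.9%. Of the tendon cells with 20 or more UMIs of the 4 genes, 244 and 164 barcodes, 67.2% and 45.1% had Mfap4. These shares were not taken at equal depth, and the part of depth in their order was not tested.

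The label was checked on 6 tendon and ligament genes outside the rule: Mfap4, Scx, Mkx, Fmod, Comp (cartilage oligomeric matrix protein, a collagen-binding thrombospondin) and Cilp2 (a cartilage and tendon matrix protein). Cilp2 was not listed for this check beforehand and is also a gene of the fibrocartilage list. Tnc, Cilp, Egr1 and Col11a1 were listed for it but are not among these 6. Fmod and Comp were also high in fibrocartilage barcodes, as given below. At least 4 of them had a UMI in 246 of 433 young tendon cells (56.8%, exact 95% interval 52.0 to 61.5%) and in 111 of 261 old ones (42.5%, 36.5 to 48.8%), against 3.69% and 2.83% of other mesenchymal barcodes. At least 1 was found in 427 and 258 tendon cells. The median was 4 genes per young and 3 per old tendon cell, against 1 and 1 elsewhere. Of the fifth marker given for the cells, Mfap4, 53.6% of young and 39.5% of old tendon cells had a UMI, 37.1% and 18.8% after thinning, against 4.84% and 5.11% of other mesenchymal and 0.619% and 0.596% of blood barcodes. Scx had a UMI in 35.3% and 41.4% of tendon cells, 17.1% and 13.4% after thinning, and Fmod in 79.4% and 72.4%, 72.4% and 60.5% after thinning. Blood barcodes had Scx in 0.929% and 0.398% and Fmod in 8.36% and 6.36%. On these genes the data went with the label in both libraries, while Tnc, a further gene listed for the check, went against it, as given below.

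**Figure D2:**
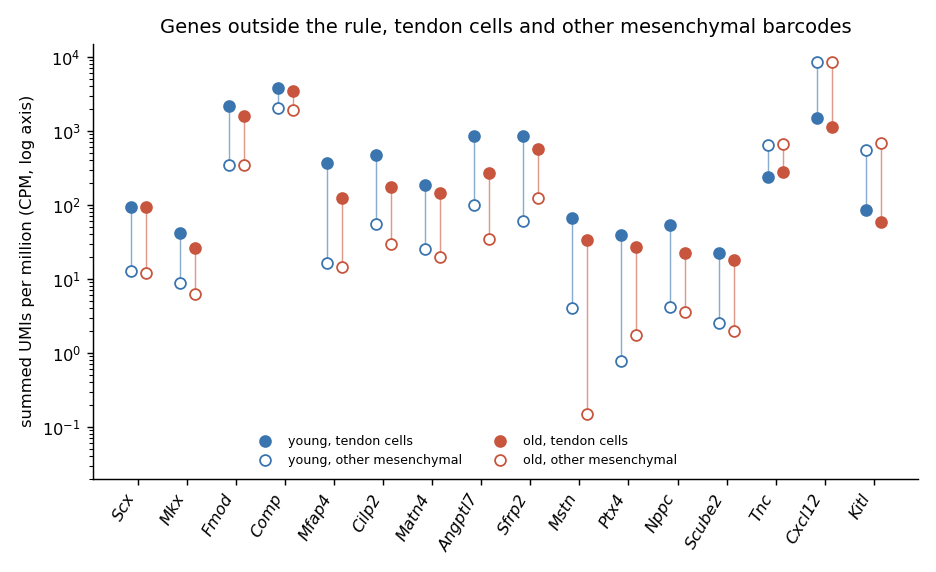
Level of genes that the rule did not use (CPM of summed UMIs, log axis) in tendon cells and other mesenchymal barcodes of each library. Scx stood at 93.7 and 92.3 CPM in young and old tendon cells against 12.6 and 12.1 in other mesenchymal barcodes, while Tnc was lower in tendon cells, 238 and 277 against 639 and 655.

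The tendon cells were not all alike. Those with a Tnmd UMI (354 young and 223 old) had Mfap4 at 432 and 146 CPM, and those without (79 and 38) at 84.2 and 13.3. Fmod stood at 2398 and 1665 with Tnmd and at 1299 and 1303 without. Scx differed less, with 98.7 and 92.7 against 72.1 and 90.1. At least 4 of the 6 tendon genes were found in 60.5% and 45.3% of tendon cells with Tnmd and in 40.5% and 26.3% of those without, although the latter were deeper, with a median of 7431 and 17714.5 UMIs. Cells with Kera (88 and 44) had Fmod at 2766 and 2599 CPM but Mfap4 at 221 and 74.9, and cells with Chodl (102 and 48) had Thbs4 at 5017 and 4593, a rule gene. Cytl1, a cytokine-like protein of cartilage, was at 3.49 and 13.5 CPM with Tnmd and at 383 and 14.8 without, and 1 young cell held 83.8% of the young Cytl1 UMIs.

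Neighbouring sets of connective tissue cells overlapped with the tendon cells. A rule of the same form on the fibrocartilage genes Cytl1, Cilp2 and Chad was met by 233 young and 69 old tendon cells, on Mmp3, Dio2 and Megf6 by 111 and 107, and on the fibroblast genes Pi16, Dpp4 and Sema3c by 26 and 12. In the 607 and 142 Cytl1 Cilp2 Chad barcodes that were no tendon cells, Fmod stood at 1298 and 1674 CPM and Comp at 7685 and 11077, levels near or above those of tendon cells (2191 and 1602 for Fmod, 3822 and 3480 for Comp). Those barcodes had far more Cytl1 (3429 and 1892 CPM against 75 and 13.7) and Prg4, the joint lubricant lubricin (12240 and 12566 against 943 and 1236), and less Scx (36.4 and 57.2 against 93.7 and 92.3) and Mfap4 (49.3 and 27.8 against 367 and 123). In the 478 and 273 Mmp3 Dio2 Megf6 barcodes Scx stood at 29.1 and 36.7 and Mfap4 at 47.7 and 28.3. In the 854 and 456 Pi16 Dpp4 Sema3c barcodes Scx was at 2.14 and 4.02, Mfap4 at 14.2 and 37.1 and Fmod at 47.6 and 30.0. These values stand side by side without a test, as the sets were themselves chosen by expression.

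Gene expression was then compared on UMIs summed per library and status, with edgeR's quasi-likelihood test, the library as a block and Benjamini-Hochberg adjustment over all genes tested. Rule genes were left out. Barcodes are not replicates, so the test rests on 4 sums of 2 libraries with 1 residual degree of freedom, and its p-values measure the spread between these libraries only, which may be technical. The cells were chosen in the same libraries, so genes that vary together with the 4 rule genes from barcode to barcode differ by that choice. Against all other kept barcodes, 2191 of 15830 genes were higher in tendon cells (13.8%) and 2454 lower (15.5%). Against other mesenchymal barcodes, the nearer comparison, 944 of 15179 genes were higher (6.22%) and 1235 lower (8.14%). Without the block the counts fell to 315 higher and 487 lower in the nearer comparison and to 1228 and 1301 against all others. Of 161 calls of genes from the lists described below, in the nearer comparison, 93 were lost without the block, 40 with DESeq2 and 27 with each barcode thinned to 2000 UMIs. Values below refer to other mesenchymal barcodes unless all others are named, fold changes are on the log2 scale with their standard error (SE), and the median over all genes was -0.00 there and -0.03 against all others.

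Among the genes highest in tendon cells were secreted regulators and matrix proteins. Other mesenchymal barcodes carried them to unlike extents. Mstn had a UMI in 0.277% (young) and 0.101% (old) of those barcodes and Angptl7 in 6.67% and 3.3%. Sfrp2 had one in 7.55% and 13.4% and Fmod in 22.6% and 18.7%. Mstn, the muscle growth inhibitor myostatin, stood at 66.0 CPM in young and 33.3 in old tendon cells against 4.08 and 0.151 in other mesenchymal barcodes (4.91, SE 0.48, edgeR adjusted p = 5.563e-05), with a UMI in 10.4% and 9.58% of tendon cells. Without the block the Mstn call was lost at 4.54. Ptx4, a long pentraxin, stood at 39.6 and 27.1 against 0.788 and 1.77 (4.81, SE 0.33, edgeR adjusted p = 6.075e-06), in 15.9% and 16.1% of tendon cells. Mfap4 stood at 367 and 123 against 16.2 and 14.4 (3.88, SE 0.25, edgeR adjusted p = 4.828e-06). In each case the lower tendon cell level exceeded the higher level of the others.

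Nppc, the precursor of C-type natriuretic peptide, was 3.29 higher (SE 0.23) but lay in 7.39% and 8.05% of tendon cells, and 1 cell held 15.1% of its young and 28.7% of its old UMIs. Ctla2a, a cysteine protease inhibitor, was 3.21 higher (SE 0.12) in 5.08% and 13% of cells, 1 of which held 20.8% and 23.8% of its UMIs. Among tendon cells with at least 3 of the 4 rule genes Ctla2a was 0.43 higher and did not pass. Scube2, a secreted carrier of Hedgehog ligands, was 3.20 higher (22.1 and 17.8 CPM against 2.54 and 1.99). Angptl7, a secreted angiopoietin-like protein, stood at 850 and 272 against 98.3 and 34.5 CPM (3.11, SE 0.11, edgeR adjusted p = 2.095e-07), with a UMI in 51.3% and 26.1% of tendon cells. Sfrp2, a secreted modulator of Wnt signalling, stood at 845 and 575 against 59.9 and 123 (3.08, SE 0.28), in 42.0% and 37.9%.

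The remaining genes of the highest 15 were Scx, Matn4, Cilp2 and Fmod, described below, with Gm26771 (78.1 and 33.9 against 6.38 and 8.45 CPM, 2.93), Fbxo2, a substrate receptor for glycoproteins (59.5 and 15.3 against 6.72 and 4.60, 2.63) and Lama3, a laminin chain (17.8 and 13.7 against 3.32 and 2.25, 2.57). Angptl7 and Fbxo2 did not pass without the block. Against all other kept barcodes the highest 15 held Vipr2, a receptor for vasoactive intestinal peptide, in place of Ctla2a. Vipr2 stood at 97.1 and 63.6 CPM against 13.7 and 9.31 (2.90, SE 0.11, edgeR adjusted p = 1.765e-08) with a UMI in 40.7% and 46.4% of tendon cells.

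Tendon transcription factors were represented by 11 genes, of which 3 were higher, none lower and 8 did not pass (median 0.41). Scx stood at 93.7 and 92.3 CPM against 12.6 and 12.1 (2.97, SE 0.11, edgeR adjusted p = 2.095e-07). Mkx stood at 41.3 and 26.4 against 8.74 and 6.22 (2.23, SE 0.15, edgeR adjusted p = 4.878e-06). Nfatc4, a calcium-regulated factor, was 0.62 higher (37.7 and 32.6 against 22.8 and 24.7). Egr1, an early growth response factor that acts on tendon collagen genes, was at 0.25 (edgeR adjusted p = 0.1874), Six2 at 0.98 (0.07205) and Eya1 at 0.41 (0.1463). Against all others 9 of the 11 were higher and none lower.

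Of 21 fibrillar and associated collagen genes, 7 were higher, 3 lower and 11 did not pass (median 0.44), with 3 higher and none lower without the block. Col8a2, a short-chain network collagen, stood at 201 and 115 CPM against 42.9 and 29.6 (2.16, SE 0.10, edgeR adjusted p = 1.051e-06). Col12a1, which coats collagen I fibrils, stood at 893 and 676 against 317 and 246 (1.54, SE 0.10, edgeR adjusted p = 5.811e-06). Col8a1 was 1.14 higher, Col15a1 0.81, Col16a1 0.70, Col5a2 (a gene of the mesenchymal rule) 0.63 and Col11a1 0.37. Col1a1, the main chain of tendon fibrils, was also abundant in other mesenchymal barcodes: it stood at 7948 and 17760 against 7275 and 12790 CPM (0.36, SE 0.15) and did not pass (edgeR adjusted p = 0.1428), while against all others it was 0.77 higher (SE 0.13, edgeR adjusted p = 0.001006). That call was lost with DESeq2, without the block and with at least 3 of the 4 rule genes, while against other mesenchymal barcodes Col1a1 did pass with thinning to 2000 UMIs (0.74), with cells chosen again at that depth (0.58) and without a low-count filter (0.33). Col3a1 was at 0.62 (0.09246) and Col14a1 at 0.67 (0.07311). The cartilage collagen Col2a1 was lower by 2.10, a value of -2.10, with Col11a2 at -0.77 and Col22a1 at -0.70. Against all others 16 of 21 were higher and 1 lower.

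Small leucine-rich proteoglycans, the collagen-binding proteins to which Kera belongs, were mostly higher: of 16 genes tested besides Kera, 10 were higher, 1 lower and 5 did not pass (median 0.86), with 5 higher and 1 lower without the block. Fmod stood at 2191 and 1602 CPM against 344 and 343 (2.51, SE 0.13, edgeR adjusted p = 1.457e-06). Epyc, epiphycan, was low but higher than elsewhere, 22.4 and 15.8 against 3.24 and 5.03 (2.28, SE 0.27, edgeR adjusted p = 0.0002276). Aspn, asporin, stood at 3280 and 3441 against 1100 and 1018 (1.73, SE 0.12), and Ogn, osteoglycin, at 2359 and 1536 against 650 and 597 (1.67). Chad, the chondrocyte adhesion protein chondroadherin, was at 1360 and 290 against 353 and 153 (1.5, SE 0.19), a member of the fibrocartilage list as well. Omd was 1.15, Ecm2 1.02, Prelp 0.88 and Dcn, decorin, 0.84 higher. Dcn stood at 18230 and 14700 CPM against 10350 and 8850. Lum was 0.63 higher, Bgn at 0.21 did not pass (0.3073), and Podnl1 was lower (16.1 and 16.0 against 42.3 and 46.5, -1.40).

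The thrombospondin and tenascin list was mixed, with 7 of 18 genes higher, 5 lower and 6 that did not pass (median 0.39), and with 4 higher and 1 lower without the block. Cilp2 stood at 473 and 174 CPM against 55.9 and 29.6 (2.89, SE 0.13, edgeR adjusted p = 7.554e-07). Thbs2 was 1.55 higher (537 and 550 against 216 and 174), Cilp 1.46 and Thbs1 1.08. Comp stood at 3822 and 3480 against 2013 and 1937 (0.95, SE 0.12, edgeR adjusted p = 0.0003045), and was not past the threshold in the cells with at least 3 of the 4 rule genes (0.48). Thbs3 and Ccn3 were higher by 0.58 and 0.47. In the other direction, tenascin C (Tnc), a glycoprotein of tendon and of tissue under load or repair, stood at 238 and 277 against 639 and 655 (-1.27, SE 0.11, edgeR adjusted p = 2.942e-05), and against all others at -0.88. Among the genes listed for the check of the label, Tnc was thus lower and Egr1 did not pass, while Mfap4, Scx, Mkx, Fmod, Comp, Cilp and Col11a1 were higher. Spp1, osteopontin, was at 595 and 1410 against 4412 and 3249 (-1.98), with Tnxb at -0.54, Ccn2 at -0.64 and Ccn5 at -0.79.

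Elastic fibre and microfibril genes split, 8 of 22 higher, 6 lower and 8 not passed (median 0.14), with 3 and 5 without the block. Besides Mfap4, Emilin3 was 2.40 higher at low levels (6.79 and 7.75 CPM against 1.70 and 1.21), Fbln1 1.08, Fbn2 1.01, Mfap2 0.99 and Eln, elastin, 0.67. Efemp1 stood at 26.9 and 34.4 against 87.6 and 155 (-1.89), Fbln5, a fibulin needed for elastic fibre assembly, at 161 and 116 against 412 and 453 (-1.60), and Emilin2 at -1.30. Fbn1, fibrillin 1, was at -0.65, and it is a gene by which the other mesenchymal barcodes were chosen. The microfibril glycoprotein Mfap4 and the fibulin Fbln5 thus lay on opposite sides.

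Among 28 collagen processing and cross-linking genes 4 were higher, 3 lower and 21 did not pass (median 0.20), with 2 higher and none lower without the block. Adamts3, a procollagen N-proteinase, stood at 7.08 and 9.05 CPM against 2.06 and 3.24 (1.68, SE 0.32, edgeR adjusted p = 0.004655), and Plod1, a collagen lysyl hydroxylase, was 0.62 higher. P3h3 and Loxl3 were higher by 0.50 and 0.37. Adamts14, another N-proteinase, was at -1.58, Pcolce2, an enhancer of C-proteinase, at -1.14 (150 and 95.1 against 322 and 233) and Colgalt2 at -0.90. Lox (0.19, edgeR adjusted p = 0.3585) and the collagen chaperone Serpinh1 (0.29, 0.1542) did not pass. The share of 4 in 28 compares with the 6.22% of all genes called higher.

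Signals of the TGF-β, GDF and FGF families included 7 genes higher, 7 lower and 12 that did not pass of 26 (median 0.12), with 3 higher and 4 lower without the block. Fgf9 stood at 36.0 and 6.98 CPM against 6.51 and 1.86 (2.33, SE 0.22, edgeR adjusted p = 5.392e-05). Tgfb3 stood at 206 and 126 against 62.6 and 58.6 (1.48, SE 0.13, edgeR adjusted p = 2.851e-05), while Tgfb2 at 0.33 did not pass (0.1258). Igf1, a growth factor that stimulates matrix synthesis, was at 698 and 1126 against 417 and 505 (1.01), with Fgf18 0.96, Igf2 0.92, Nog, a BMP antagonist, 0.75 and Tgfbr1 0.54 higher. Among the lower genes, Bmp6 stood at 13.3 and 4.65 against 86.6 and 95.5 (-3.32, SE 0.25, edgeR adjusted p = 1.055e-05), Grem1, a BMP antagonist also listed for marrow stroma, at 58.9 and 6.20 against 161 and 144 (-2.45), and Bmp4 at 37.4 and 26.1 against 80.8 and 83.2 (-1.32). Chrdl1, Fst, Bmp2 and Tgfbr3 were at -1.44, -1.07, -0.71 and -0.35.

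Of 17 integrin and mechanosensing genes, 8 were higher, 3 lower and 6 did not pass (median 0.27), with 6 higher and 2 lower without the block. Piezo2, a stretch-activated ion channel, stood at 52.9 and 48.1 CPM against 10.6 and 11.0 (2.28, SE 0.12, edgeR adjusted p = 1.427e-06). Its paralog Piezo1 stood at 26.0 and 37.5 against 28.4 and 31.9 (0.13, edgeR adjusted p = 0.5984). Itgbl1, a secreted integrin β-like protein, stood at 488 and 361 against 88.4 and 95.7 (2.25, SE 0.13, edgeR adjusted p = 2.216e-06). The integrin α chains Itga2, Itga8 and Itga11 were 1.54, 1.35 and 0.54 higher and Itga1 at -1.10. The Hippo pathway coactivators Wwtr1 and Yap1 were 0.92 and 0.56 higher, and Gja1, connexin 43, stood at 198 and 212 against 422 and 519 (-1.13).

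**Figure D3:**
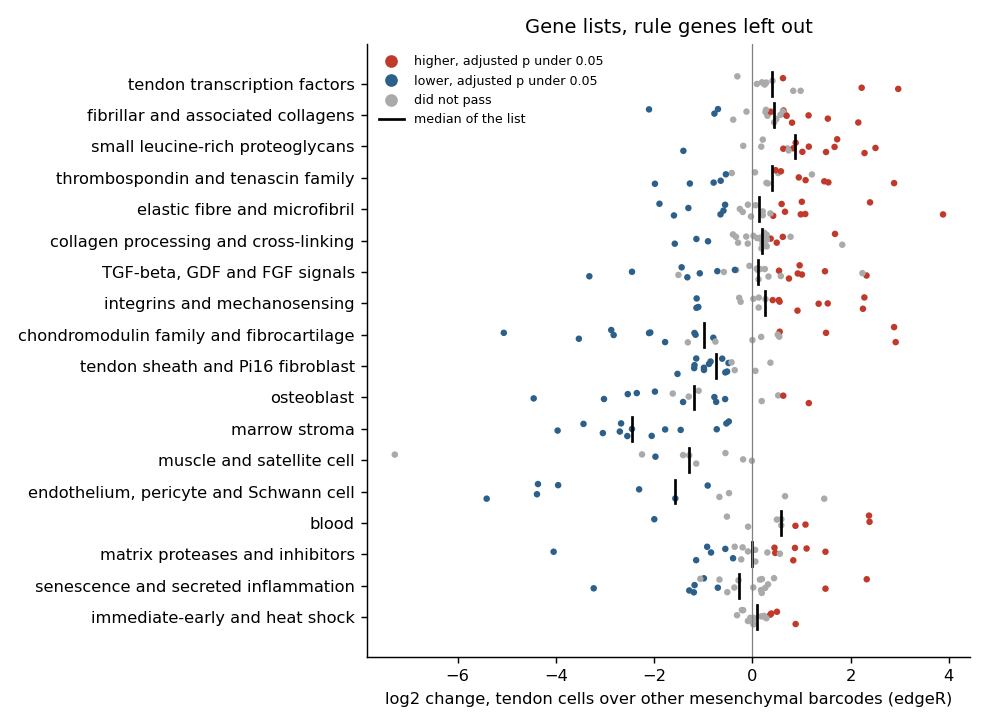
Log2 difference of each list gene between tendon cells and other mesenchymal barcodes (edgeR, library as a block), one row per gene list, with genes past an adjusted p of 0.05 set apart from the others. Small leucine-rich proteoglycans lay mostly above 0 (median 0.86), and marrow stroma genes lay below 0 in 13 of 13 cases (median -2.45).

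In the list of chondromodulin family and fibrocartilage genes, 10 of 20 tested were lower, 4 higher and 6 did not pass (median -0.97). Without the block 2 were lower and 2 higher, and with Thbs4 barcodes left out of the others (chosen after the data were seen) 5 were lower and 6 higher (median 0.015), so the list had no settled direction. The higher ones were Cilp2, Chad, Matn4 and Matn2. Matn4, matrilin 4, stood at 187 and 145 CPM against 25.7 and 20.0 (2.92, SE 0.10, edgeR adjusted p = 2.095e-07) with a UMI in 29.3% and 23.8% of tendon cells. Cnmd, chondromodulin, the paralog of Tnmd in cartilage, stood at 0.849 and 1.55 against 17.1 and 2.74 (-2.82, SE 0.57, edgeR adjusted p = 0.007416). Col10a1 of hypertrophic cartilage was at 0.849 and 0.259 against 1.15 and 38 (-5.06), which in the young library is a small gap, Col9a3 at -3.53 and Snorc at -2.87. Prg4 stood at 943 and 1236 against 2555 and 2538 (-1.18) and Cytl1 at -1.78. Sox9, the cartilage factor that tendon insertions also express, was at 106 and 57.6 against 88.4 and 75.9 (0.00, edgeR adjusted p = 0.9948), and Acan at 0.18 (0.6371).

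Genes of the sheath and of Pi16 fibroblasts were lower in 12 of 16 cases, with none higher (median -0.73), and in 3 without the block. Pi16 stood at 97.7 and 35.2 CPM against 149 and 131 (-1.14, SE 0.21, edgeR adjusted p = 0.004645), and Tppp3, a marker of sheath cells, at 118 and 134 against 255 and 219 (-0.85). Cd55 was at -1.52 and Dpp4 at -1.18. Ly6a, the stem cell antigen Sca-1, was at -0.36 (0.09648) and Sema3c at -0.42 (0.05275), neither passing. Against all others 8 of the 16 were lower and 1 higher.

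Of 16 osteoblast genes 9 were lower, 2 higher and 5 did not pass (median -1.19), with 4 lower and none higher without the block. The genes named next had negative values, and the 2 called higher are not among them. With thinning to 2000 UMIs 3 were higher and 10 lower, and with at least 3 of the 4 rule genes 0 and 11. Ibsp, bone sialoprotein, stood at 587 and 907 CPM against 3856 and 3919 (-2.35, SE 0.16, edgeR adjusted p = 6.659e-06), Dmp1 of osteocytes at 0.283 and 2.33 against 28.3 and 33.1 (-4.45), and Sp7 and Runx2, the factors of the osteoblast lineage, at -0.74 and -0.55. Bglap, osteocalcin, stood at 56.1 and 2855 against 865 and 2293 (-1.62) and did not pass (edgeR adjusted p = 0.2467), being low in young tendon cells only, and 1 old cell held 33.9% of the old Bglap UMIs. The 13 marrow stroma genes were all lower with the block and 7 of them without it (median -2.45 with the block). Cxcl12, which retains blood stem cells, stood at 1496 and 1118 against 8569 and 8622 (-2.67, SE 0.14, edgeR adjusted p = 1.561e-06), Kitl, stem cell factor, at 86.6 and 58.2 against 545 and 691 (-3.04), Adipoq, adiponectin, at 51.5 and 17.8 against 397 and 722 (-3.96), Hp at -3.44, and Lepr, the leptin receptor, at 200 and 77.5 against 511 and 584 (-2.05).

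Markers of other cell types were summed as well, and whether their UMIs came from foreign RNA was not tested. Muscle and satellite cell genes summed to 27.7 and 12.7 CPM in tendon cells against 51.1 and 38.6 in other mesenchymal barcodes, 4 and 7 of 14 genes were at 0, and of 9 tested 1 was lower (Des, -1.97). Endothelial, pericyte and Schwann cell genes summed to 98.8 and 141 against 287 and 448, 5 and 4 of 15 were at 0, and 7 of 11 tested were lower (3 without the block), among them Myh11 (-5.41), Rgs5 (1.42 and 1.55 against 25.5 and 39.4 CPM, -4.38) and Notch3 (-2.30). Pecam1 of endothelium had 7 and 3 UMIs. Male genes (Ddx3y at 82.7 and 80.4 CPM) and Xist (0 UMIs in tendon cells of both libraries) gave both libraries the same sex, and none of 5 sex-linked genes passed.

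Blood genes summed to 2907 and 1036 CPM in tendon cells, against 944 and 617 in other mesenchymal barcodes and 5648 and 14130 in all others, with 1 and 3 of 13 genes at 0. In this list 4 of 10 genes tested were higher than in other mesenchymal barcodes and none without the block: the neutrophil genes S100a8 (2.38) and S100a9 (2.39) and the haemoglobins Hbb-bs (1.08) and Hba-a1 (0.88). One young tendon cell held 85.7% and 1 old cell 48.2% of these blood UMIs. With that cell left out in each library (chosen after the data were seen), none of the 4 passed: S100a8 was at 0.42 (edgeR adjusted p = 0.4683), S100a9 at 0.55 (0.2891), Hbb-bs at -0.88 (0.1625) and Hba-a1 at -0.98 (0.06323). The inflammatory cytokine Il1b behaved alike, at 2.33 with those cells and 0.71 without (0.5071). The counts then became 1050 higher and 1381 lower.

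The genes lowest in tendon cells had 0 UMIs there in both libraries, so only bounds can be given, from a floor of 3 UMIs (0.849 CPM young and 0.775 old). Against all others Ltf, the granulocyte protein lactotransferrin, was at least 37.0-fold lower in the young and at least 78.6-fold lower in the old library, Chil3 at least 6.62-fold and 14.5-fold, Stap1, an adaptor of B cells, at least 9.11-fold and 11.1-fold, and Pln, phospholamban of muscle, at least 3.61-fold and 11.0-fold. Igsf6 (at least 3.01-fold and 9.26-fold lower), Ctss (1.41 and 9.22), Tnfrsf13b (3.31 and 7.2) and Cd69 (5.66 and 4.64) completed the 8. Against other mesenchymal barcodes the bounds were small: Pln at least 2.56-fold and 8.75-fold lower, Slco1a4 4.00 and 7.19, Gvin1 3.35 and 7.21, Tgtp2 2.14 and 7.16, Lama1 1.65 and 7.38, Calml3 4.78 and 3.06, Rab19 3.65 and 3.90, and Fut9 4.52 and 2.70. Under other settings these 16 results, with Pln in both comparisons, lost 45 calls and kept 177. The 30 results of genes named as highest lost 5 and kept 430.

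Matrix proteases and their inhibitors were divided, 6 of 20 higher, 6 lower and 8 not passed (median -0.02), with 1 higher and 2 lower without the block. Mmp3, stromelysin, stood at 321 and 617 CPM against 192 and 144 (1.49, SE 0.25, edgeR adjusted p = 0.002561), Mmp2, a gelatinase, at 953 and 1390 against 493 and 631 (1.10), Ctsk at 0.87 and Timp3 at 0.83 higher. Mmp13, the main rodent collagenase, stood at 257 and 317 against 674 and 643 (-1.14), and Timp4 at 0.566 and 2.07 against 18.3 and 27.9 (-4.04). Immediate-early and heat shock genes, which digestion can raise, were higher in 4 of 16 cases, 1 without the block, with none lower (Ier3 0.88, Fos 0.50, Dusp1 0.39 and Fosb 0.37, median 0.10). With at least 3 of the 4 rule genes the direction of this list turned, with 1 gene higher and 5 lower (median -0.21), and Dusp1 changed sign. The part of immediate-early and heat shock genes in other differences was not tested.

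Senescence and secreted inflammation genes, which the study was concerned with, were lower in 6 of 21 cases and higher in 2, Mmp3 and Il1b (median -0.28), and without the block in 2 and none. Over all genes tested 8.14% were lower and 6.22% higher. Il1b was at 0.71 without the cell richest in blood UMIs of each library and at -0.83 with Tnmd cells alone, and passed in neither setting. The lower genes of this list included the chemokines Ccl2 (-1.28), Ccl7 (-0.99) and Cxcl1 (-0.70), the IGF binding proteins Igfbp4 (-1.19) and Igfbp5 (-1.18) and Gdf15 (-3.23). Cdkn1a, which encodes p21, stood at 192 and 172 CPM against 286 and 208 (-0.37, SE 0.11, edgeR adjusted p = 0.05474) and against all others at -0.01 (0.9577). It passed as lower than in other mesenchymal barcodes under 6 other settings: at least 3 rule genes (-0.83), cells chosen again at 2000 UMIs (-0.51), Tnmd cells alone (-0.48), no low-count filter (-0.40), the cell richest in blood UMIs left out (-0.39) and predicted doublets left out (-0.36). Cdkn2a, which encodes p16, had 3 UMIs in 3 young tendon cells and 41 UMIs in 13 old ones, 0.849 and 10.6 CPM against 2.49 and 11.3 in other mesenchymal barcodes (-0.28, SE 0.33, edgeR adjusted p = 0.6754). Few molecules lie behind these Cdkn2a values, and no difference was detectable at this depth.

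The antibody gave an independent readout of surface CD24. Tendon cells had a median of 74 antibody UMIs in the young library (quartiles 52 to 121, range 10 to 7295) and 92 in the old (56 to 150, 21 to 7945). Other mesenchymal barcodes had medians of 86 and 88, all other kept barcodes 93 and 95, and blood barcodes 242 and 118. Over the medians of other mesenchymal barcodes the ratios were 0.860 (young) and 1.05 (old), so the libraries fell on either side of 1. Per 1000 RNA UMIs tendon cells lay below in both, with 11.8 against 13.8 and 7.03 against 9.28.

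By the Otsu threshold of each library (318 and 404 antibody UMIs), 27 young tendon cells were CD24+ (6.24%, exact 95% interval 4.15 to 8.94%) and 18 old ones (6.90%, 4.14 to 10.7%). The share in other mesenchymal barcodes was 8.58% and 5.49% and in blood barcodes 45% and 25.0%. Of the 27 young CD24+ tendon cells 9 were predicted doublets, and their median depth was 12087 RNA UMIs against 6809 in CD24- tendon cells; of the 18 old ones none was, with 16926 against 13284. Mfap4 had a UMI in 51.9% of CD24+ and 53.7% of CD24- tendon cells in the young library and in 11.1% and 41.6% in the old, where 18 cells carry the first share. At the RNA level Cd24a stood at 22.1 and 17.3 CPM in tendon cells and at 24.6 and 17.1 in other mesenchymal barcodes (-0.01, SE 0.14, edgeR adjusted p = 0.9749). With at least 3 of the 4 rule genes it was at -2.65 and passed. Against all others, which include the blood cells, Cd24a was at -2.81 (SE 0.18, edgeR adjusted p = 4.348e-07). A Cd24a UMI was found in 33.3% and 22.2% of CD24+ and in 3.94% and 5.35% of CD24- tendon cells.

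**Figure D4:**
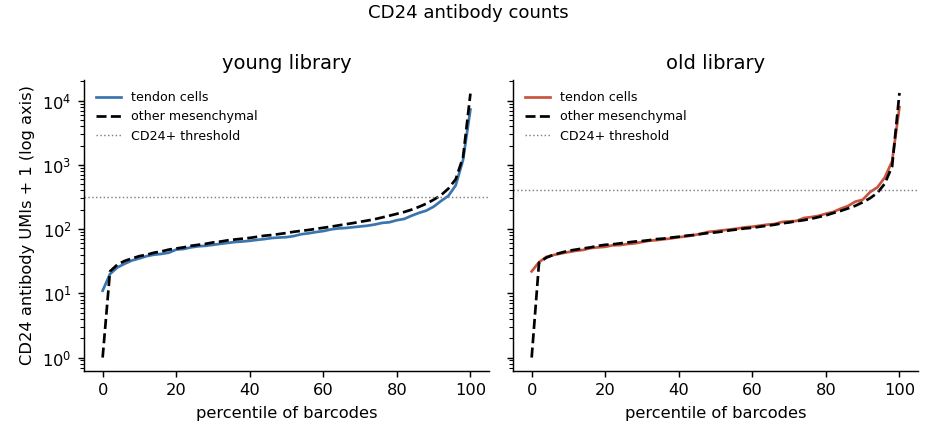
CD24 antibody UMIs per barcode (log axis) in tendon cells and other mesenchymal barcodes of each library, with the Otsu threshold. Medians of tendon cells were 74 and 92 antibody UMIs, and 27 young and 18 old tendon cells lay above the thresholds of 318 and 404.

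Old and young tendon cells were set side by side as ratios of CPM, old over young. With 1 library per age there is no test, and a gene was counted when it had at least 50 UMIs over both libraries, a ratio of at least 2 or at most 0.5 and an exact 95% counting interval on 1 side of 1. Of 9661 genes with enough UMIs, 126 were higher (1.3%) and 158 lower (1.64%) in old tendon cells. Age, animal and library cannot be told apart. Where 1 cell holds most UMIs of a gene the counting interval is too narrow, so each ratio was also taken without the cell richest in that gene in each library (an alternative chosen after the data were seen), which kept 97 of the 126 and 124 of the 158 past the rule.

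None of the 4 rule genes passed the rule of size. They chose the cells in both libraries, so their ratios cannot show whether the cells differed in them. Tnmd had a ratio of 0.967 (0.906 to 1.03), Kera 0.852, Chodl 0.757 and Thbs4 0.744 (0.723 to 0.764), as a description of the rule genes. Scx had 0.985 (0.846 to 1.15), Mkx 0.638 (0.490 to 0.827), Fmod 0.731, Comp 0.911, Tnc 1.17 and Cdkn1a 0.897, none past the rule of size. Mfap4 did pass, with 367 CPM in young and 123 in old tendon cells (ratio 0.334, interval 0.300 to 0.371), against a ratio of 0.887 in other mesenchymal barcodes. Cilp2 (473 and 174, 0.368) and Chad (1360 and 290, 0.213, interval 0.2 to 0.228) were lower too, and these were lower in other mesenchymal barcodes as well, at 0.529 and 0.435. The rule on Cytl1, Cilp2 and Chad was met by 233 of 433 young and 69 of 261 old tendon cells. Whether the level per cell or the make-up of the sets differed was not tested.

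Collagen genes were counted as higher in 8 of 21 cases and lower in none, and all 8 stayed past the rule without the richest cells. Col1a1 stood at 7948 CPM in young and 17760 in old tendon cells (2.23, interval 2.20 to 2.27) against a ratio of 1.76 in other mesenchymal barcodes. Col3a1 had 5282 and 11150 (2.11, elsewhere 1.02), Col6a3 463 and 980 (2.12, elsewhere 1.17) and Col14a1, a fibril-associated collagen, 395 and 823 (2.08, elsewhere 0.934). Col5a3, Col11a2 and Col22a1 had ratios of 2.09, 7.07 and 5.40. Col2a1 rested in part on 1 cell, with 52.9% of its old UMIs, and went from 14.3 to 11.8 without it. The median of this list was 0.86 on the log2 scale beside -0.05 for all genes.

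Other matrix genes were counted singly. Postn, periostin, stood at 296 and 710 CPM (2.40, elsewhere 0.575), Tnn, tenascin W, at a ratio of 2.05 (elsewhere 0.852), Ccn4 at 2.37, and Spp1 at 2.37 but 1.45 without the cell that held 46.7% of its old UMIs. Eln had a ratio of 3.71, P4ha3, a collagen prolyl hydroxylase, 2.63 and Acan 2.10, while P3h2 had 0.353. Among proteases Mmp14, Mmp19 and Timp1 were at 2.10, 2.37 and 2.09 and Timp3 at 0.486. No gene of the tendon transcription factor, integrin or immediate-early lists and none of the 4 sex-linked genes with enough UMIs passed the rule.

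Osteoblast genes were the other group with many genes higher in old tendon cells, 7 of 14, with Ostn lower (0.334). Bglap stood at 56.1 and 2855 CPM (50.9, interval 44.3 to 58.9, elsewhere 2.65) and at 41.7 without the cell with 33.9% of its old UMIs. Ifitm5, a bone-restricted membrane protein, stood at 0.849 and 42.4 CPM (49.9, elsewhere 2.39) and Bglap2 at 105 and 1722 (16.4, elsewhere 1.75). These ratios rest on a part of the cells. Bglap had a UMI in 57 young (13.2%) and 62 old tendon cells (23.75%), Bglap2 in 67 and 57 and Ifitm5 in 3 and 13. One old cell held 26.7% of the old osteoblast-list UMIs, and without the richest cell of each gene 4 of the 7 remained past the rule (Spp1 and Sp7 were among those lost). The old tendon cells without Tnmd had Bglap at 109 CPM and those with Tnmd at 3438. Whether RNA of osteoblasts in the same droplets adds to these values was not tested.

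Of the remaining highest ratios, Car3, a carbonic anhydrase of fat and muscle, stood at 1.42 and 100.5 CPM (71.0, elsewhere 2.51) in 8 old cells, Bglap3 at 4.25 and 118 (27.7), Prss35 at a ratio of 23.3 and Slc36a2 at 8.40. Of the lowest, AA465934 stood at 37.4 and 0.517 CPM (0.0138) and Gm8797 at 214 and 10.1 (0.0471), and both were also low elsewhere, 0.0316 and 0.0559. Egfl6, a secreted matrix protein, stood at 81.0 and 6.72 (0.0830, elsewhere 0.261) and Grem1 at 58.9 and 6.20 (0.105, elsewhere 0.897). Single young cells carried Snorc (64.9% of its young UMIs in 1 cell, ratio 0.0123), Ppbp and Pf4 of platelets (82.7% each, 0.0380 and 0.0692) and Acod1 (100% in 1 cell, 0.0815). Without those cells Snorc and Ppbp had too few UMIs, Pf4 was at 0.380 and young Acod1 had 0 UMIs.

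In the signalling list 5 genes were lower in old tendon cells and 1 higher: Fgf9 at 0.194 (elsewhere 0.285), Grem1, Bmp6 at 0.350, Nog at 0.396, Fgf18 at 0.472 and Fgfr3 at 2.09. The sheath list had Pi16 at 0.360, Dpp4 at 0.410 and Cd55 at 0.465, and the marrow stroma list Lepr at 0.389, Adipoq at 0.346, Hp at 0.216 and Grem1. Cytl1 was at 0.183 but at 0.701 without the young cell that held most of it. In the senescence list Il6 stood at 16.4 and 84.5 CPM (5.15, and 3.37 without its richest cells), Bcl2, an inhibitor of apoptosis, at 81.2 and 33.6 (0.414, elsewhere 1.11), and Il1b at 3.93, nearly all of it from 1 cell in each library. Of the blood list 2 of 6 genes were higher and 4 lower, among them S100a8 at 5.26 and Hbb-bs at 0.191, with 89.9% and 93.8% of the young and 93.9% and 81.3% of the old UMIs in 1 cell. Both directions turned when the cell with the most blood UMIs was left out in each library (S100a8 0.321, Hbb-bs 3.08), and S100a8 was at 0.285 without predicted doublets. Young S100a8 stood at 42.1 CPM after that removal, so its richest young cell was still in. Without the cell richest in each gene, neither direction turned (S100a8 3.17, Hbb-bs 0.578), and Hbb-bs no longer passed the rule. Cdkn2a, with 3 and 41 UMIs, stayed below the minimum of 50.

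**Figure D5:**
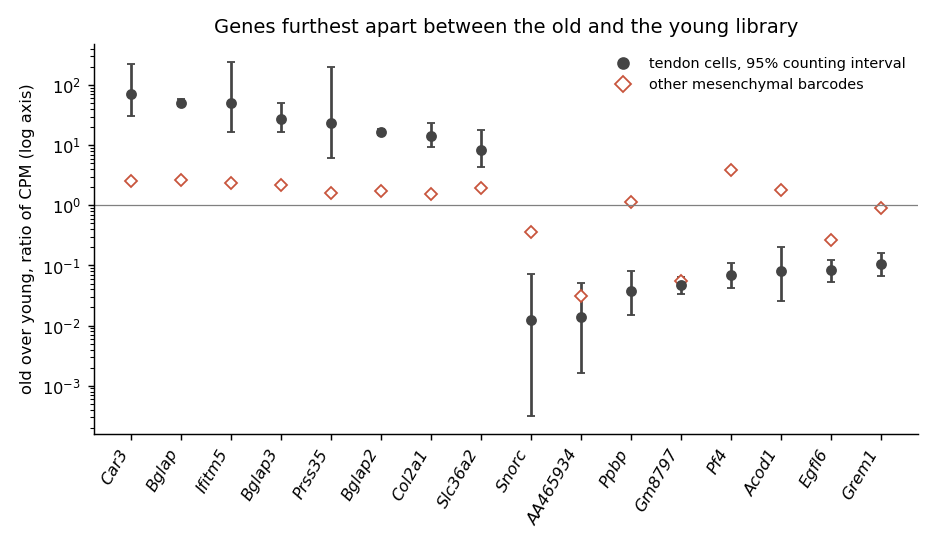
Ratio of CPM in old over young tendon cells (log axis) with exact 95% counting intervals for named genes, beside the same ratio in other mesenchymal barcodes. Bglap lay at 50.9 and Egfl6 at 0.0830, against 2.65 and 0.261 in other mesenchymal barcodes.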

How the data were processed

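Processed matrices of 1 young and 1 old library were used, each holding raw UMI counts as deposited by the authors for 32285 genes and 1 antibody, without normalization. Submitters' processing notes name Cell Ranger, Seurat 4.0, R 4.0.3 and mm10, and the file headers Cell Ranger 6.1.1. A 3′ library reads transcript ends, and free RNA in a droplet is counted with the cell. After filtering (at least 200 genes, at most 20% mitochondrial UMIs), 81076421 young and 66702846 old RNA UMIs remained, of which tendon cells held 3532554 and 3868883. Per-library sums were compared with edgeR 4.0.16 in R 4.3.3 (TMM, filterByExpr, quasi-likelihood F test, two-sided, Benjamini-Hochberg), with the library as a block since both sums of a pair come from 1 library, and with DESeq2 1.42.0 as an alternative. The script was tested on simulated data. Shares have exact Clopper-Pearson intervals, CPM ratios exact binomial ones, at 95%; doublets were called with Scrublet (scanpy 1.11.5, seed 1). Cells were chosen on 4 genes and gene lists were drawn up with earlier results of these data known. Named genes were the rule genes, tendon and senescence markers, the 15 highest and 8 lowest per comparison with at least 50 UMIs per library, up to 4 called genes per list with others of defining role, and the 8 highest and lowest ratios between ages. Further list genes were named after their values were seen, and some list genes are not reported here. Alternatives tried were 10% mitochondrial UMIs, at least 3 rule genes, at least 6 UMIs, doublets left out, thinning to 2000 UMIs, no low-count filter, no block, each library left out, a stricter mesenchymal rule (5 of 8 genes), per-cell means, a minimum of 200 UMIs, and other CD24 scales and thresholds. Cells with Tnmd only, Thbs4 barcodes left out of the others, and the cell richest in blood UMIs or in each gene left out were added after the data were seen.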

Additional observations from a re-analysis of the deposited data

Results flagged for a closer look

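Some values went in opposite directions in the libraries or in the cell sets, and none of these differences was tested. The median CD24 antibody count of tendon cells over other mesenchymal barcodes was 0.860 (young) and 1.05 (old). Old over young, Ppbp was at 0.0380 in tendon cells and 1.13 in other mesenchymal barcodes, Pf4 at 0.0692 and 3.83, and Acod1 at 0.0815 and 1.83, and 1 young tendon cell held 82.7%, 82.7% and 100% of their young UMIs. Against all other kept barcodes, Cdkn1a was at -0.26 (young) and 0.051 (old) on the log2 scale, and Cdkn2a at -1.03 and 0.32, the young Cdkn2a value from 3 UMIs. Against other mesenchymal barcodes, Cd24a was at -0.14 (young) and 0.031 (old).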

How the results depend on the processing

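Of 858 alternative values for 60 gene results, 782 kept their direction and their side of the threshold, 54 lost a call, 11 gained one and 11 changed sign. The genes named as highest lost 5 calls and kept 430, and those named as lowest lost 45 and kept 177. The changes of sign were Cdkn2a against all others (-0.85 with thinning to 2000 UMIs, -0.15 with DESeq2, -0.84 with cells chosen again at 2000 UMIs, from -1.03 without the old to 0.32 without the young library) and against other mesenchymal barcodes (1.15 with at least 3 rule genes), Cdkn1a against all others (0.21 with Thbs4 barcodes left out, from -0.26 without the old to 0.051 without the young library) and Cd24a against other mesenchymal barcodes (0.44 with thinning, 0.057 with Thbs4 barcodes left out, 0.28 with the stricter mesenchymal rule, from -0.14 without the old to 0.031 without the young library). Without the replicate block the calls fell to 1228 higher and 1301 lower against all others and to 315 and 487 against other mesenchymal barcodes. In the same order, DESeq2 gave 1100 and 1264, and 454 and 590, at least 3 rule genes 847 and 1417, and 473 and 814, cells chosen again at 2000 UMIs 734 and 1044, and 552 and 707, and thinning gave 1032 and 1372 against all others. Of 161 called list genes against other mesenchymal barcodes, 93 lost the call without the block, 40 with DESeq2 and 27 with thinning, none of them changing sign. At least 3 rule genes turned 13 of them, with fewer cells. These were Col22a1, Dlx5, Dusp1, Eln, Hba-a1, Hbb-bs, Igf2, Il1b, Itgb5, Mmp11, S100a8, S100a9 and Tgfbr3. Between ages, 60 genes were higher and 84 lower with at least 3 rule genes, 24 and 24 with cells chosen again at 2000 UMIs, and 48 and 50 with at least 200 UMIs. The young share of tendon cells became 0.964% with at least 3 rule genes, 3.8% with at least 6 UMIs and 2.60% when chosen again at 2000 UMIs, and the old share 0.874% and 2.27% for the first and last. CD24+ shares became 1.03% and 2.04% with at least 3 rule genes and 3.00% and 3.83% above the 90th percentile, and antibody ratios 0.756 and 0.854 with at least 3 rule genes and, in the old library, 0.758 per 1000 RNA UMIs. Beyond fewer cells or genes where so constructed, the cause was not tested. With 2 libraries, 1 per age, depth limits low genes such as Cdkn2a, and age cannot be told apart from library.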
